A study of Mus musculus with 16 samples.

Results

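The genes described here encode 35 proteins of the lysosome, chosen by name from 28632 gene names on the array: every non-control probe that the scanner files assign to a listed gene was taken, which gave 59 probes. A probe was kept where the scanner called it well above background in 4 or more of 24 channels, which held for 54, and all 35 genes had a kept probe. They were grouped by role. The macrophage-rich cathepsins are Ctsc, Ctse, Ctsk, Ctss and Ctsz. The ubiquitous hydrolases are 20 enzymes that most cells make. Psap and Npc2 are activators and carriers of the lumen, and 8 genes encode membrane proteins.

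RNA came from livers of 4 kinds of mice. The double knockout carried floxed Atg7 alleles, Cre under the Mx1 promoter and a germline deletion of Nrf2 (Atg7F/F:Mx1-Cre:Nrf2-/-). The conditional knockout (Atg7 cKO) carried Atg7F/F:Mx1-Cre with Nrf2 intact, Nrf2 KO mice were Nrf2-/- with Atg7 intact, and wild-type mice (WT) carried neither change. Per the design text, pIpC, an inducer of the Mx1 promoter, was given to double knockout, Atg7 cKO and control mice aged 8 weeks. Tissue was collected after a further 4 weeks, although another label speaks of treatment for 4 weeks. The sample records carry the same age and interval for every array, those of Nrf2 KO against WT included. These records are kept per array and do not say which mice were injected. The Mx1 promoter answers to interferon and is not limited to hepatocytes, so liver macrophages can lose Atg7 too. Each array carried 2 genotypes in 2 dyes and was repeated with the dyes exchanged, and such a pair counted as 1 experiment. The double knockout was set against WT in experiments 3 and 6, Atg7 cKO against WT in experiments 2 and 5, Nrf2 KO against WT in experiments 1 and 4, and the double knockout directly against Atg7 cKO in experiments 7 and 8. The labels give no animal numbers. P-values rest on the spread between the 2 experiments of a comparison, pooled over the comparisons fitted together. This spread may be technical in part.

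Lysosomes are acidic organelles that break down material delivered by autophagy and endocytosis. Their soluble hydrolases are carried from the Golgi apparatus by mannose 6-phosphate receptors, a proton pump (V-ATPase) acidifies the lumen, and heavily glycosylated proteins such as LAMP1 and LAMP2 line the membrane. Atg7 is an enzyme needed to build autophagosomes, which hand their content to lysosomes. In liver, hepatocytes and resident macrophages (Kupffer cells) both hold many lysosomes, and some cathepsins are made mostly by macrophages and related cells. Nrf2, the product of Nfe2l2, switches on genes for antioxidant defence and detoxification.

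Many lysosomal genes carry the CLEAR element, an E-box bound by the transcription factor TFEB, and Nrf2 binds the antioxidant response element, so both motifs were looked for in the promoters. RefSeq windows on build GRCm38.p6 were found for 30 of the 35 genes, and the 250 bases before the start were searched on both strands. The E-box core CACGTG, which reads the same on both strands, lay in the windows of 11 of the 30 genes (36.7%), against 6.02% of all 32851 windows. The longer form GTCACGTG, every match of which also holds CACGTG, lay in 8 of 30 (26.7%), against 1.85% of all windows. These 8 genes were Ctsa, Ctsd, Lgmn, Gla, Glb1, Arsa, Lamp1 and Mcoln1. The antioxidant response core TGACNNNGC lay in 6 of 30 (20%; Ctsz, Ctsd, Tpp1, Hexa, Psap and Scarb2), against 10.2% of all windows. A gene was counted if any of its windows held the motif, and 3 genes had more than 1 window. The shares over all, in contrast, count windows. A match describes the sequence and is not a measured site.

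The windows of 5 genes to which the results below return are given 5′ to 3′ on the strand of the gene, with GTCACGTG or its reverse complement in capitals. Ctsd, Lamp1 and Mcoln1 hold the motif, and Ctss and Lipa do not. They lie at chr7:142387828-142388077 (minus strand) for Ctsd, chr8:13158911-13159160 (plus) for Lamp1, chr8:3500269-3500518 (plus) for Mcoln1, chr3:95526536-95526785 (plus) for Ctss and chr19:34527475-34527724 (minus) for Lipa.
Ctsd: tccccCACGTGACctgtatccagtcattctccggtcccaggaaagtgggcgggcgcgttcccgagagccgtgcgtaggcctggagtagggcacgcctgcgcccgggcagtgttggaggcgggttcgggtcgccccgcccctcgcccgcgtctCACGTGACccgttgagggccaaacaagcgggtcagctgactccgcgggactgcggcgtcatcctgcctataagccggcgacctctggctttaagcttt
Lamp1: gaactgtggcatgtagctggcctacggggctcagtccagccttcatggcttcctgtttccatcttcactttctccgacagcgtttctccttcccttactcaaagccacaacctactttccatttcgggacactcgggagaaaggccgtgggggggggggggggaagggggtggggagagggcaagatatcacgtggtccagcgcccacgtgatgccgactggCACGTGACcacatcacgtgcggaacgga
Mcoln1: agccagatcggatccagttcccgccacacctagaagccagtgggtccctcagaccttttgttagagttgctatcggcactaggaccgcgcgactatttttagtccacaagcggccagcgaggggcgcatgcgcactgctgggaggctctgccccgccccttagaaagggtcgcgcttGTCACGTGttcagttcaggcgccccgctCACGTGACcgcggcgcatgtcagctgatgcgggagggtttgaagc
Ctss: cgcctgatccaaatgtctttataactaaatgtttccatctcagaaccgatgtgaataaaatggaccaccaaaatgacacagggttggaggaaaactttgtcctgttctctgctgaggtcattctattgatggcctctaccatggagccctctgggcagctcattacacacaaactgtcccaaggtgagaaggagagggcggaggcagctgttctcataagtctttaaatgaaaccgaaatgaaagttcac
Lipa: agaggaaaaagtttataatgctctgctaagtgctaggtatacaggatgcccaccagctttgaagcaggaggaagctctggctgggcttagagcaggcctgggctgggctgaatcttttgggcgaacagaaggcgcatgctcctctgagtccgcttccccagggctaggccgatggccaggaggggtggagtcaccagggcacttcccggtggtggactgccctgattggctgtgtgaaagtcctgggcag

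The targeted genes followed the labels. The log2 ratio of Nfe2l2 was -3.71 in the double knockout, 1.197 in Atg7 cKO and -3.88 in Nrf2 KO, each over WT. That of Atg7 was -0.73 in the double knockout, -0.80 in Atg7 cKO and -0.05 in Nrf2 KO. Between 43.4% and 57.2% of spots were well above background in a channel. Experiments 1 to 3 and 4 to 6 formed sets that cut across the genotypes: the Y-linked Ddx3y exceeded background in 12 of 12 channels of experiments 1 to 3 and in 0 of 12 of experiments 4 to 6, and Xist the reverse. Each comparison with WT holds 1 experiment of each set. The WT signals of experiments 4 to 6 did not overlap those of experiments 1 to 3 for 18 of the 35 genes (8 higher and 10 lower), where this held for 40.9% of all genes (20.4% higher and 20.5% lower). Over the 35 genes, Pearson's r between the dye orientations of an experiment was 0.97 and 0.91 in the double knockout, 0.94 and 0.90 in Atg7 cKO, 0.88 and 0.72 in the direct comparison, but only 0.49 and -0.08 in Nrf2 KO. These values describe likeness across genes and carry no test.

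The summed signals of marker genes for cell types of the liver differed between the genotypes. The log2 of the summed signal of macrophage markers (15 of 17 listed had a probe, all of them kept) was 15.4 to 15.6 in the double knockout, 14.6 to 15.1 in Atg7 cKO and 12.9 in Nrf2 KO, against 12.7 to 13 in WT. For neutrophil markers (5 of 8 listed kept) it was 11.4 to 12.2 in the double knockout, 9.46 to 10.4 in Atg7 cKO and 9.03 to 9.23 in Nrf2 KO, against 8.81 to 9.24 in WT. S100a9 and S100a8 were the 2 of 5 neutrophil markers that rose in either genotype, and the median of the 5 was 0.32 in the double knockout and 0.22 in Atg7 cKO. For 7 stellate cell markers it was 11.7 to 11.8 in the double knockout, 11.8 to 11.99 in Atg7 cKO and 10.6 to 10.7 in Nrf2 KO, against 10.5 to 10.7 in WT. For 5 cholangiocyte markers it was 11.9 to 12.2 in the double knockout, 11.8 in Atg7 cKO and 9.61 to 9.64 in Nrf2 KO, against 9.63 to 10.01 in WT, a sum carried by Spp1 (log2 ratio 2.78 in the double knockout and 2.55 in Atg7 cKO), since the list's median was 0.08 in the double knockout and 0.17 in Atg7 cKO. The 11 hepatocyte markers, all of them kept, gave 15.8 to 16.4 in the double knockout, 15.6 to 15.8 in Atg7 cKO and 16.6 to 16.7 in Nrf2 KO, against 16.5 to 17.1 in WT. Endothelial markers (7) gave 10.8 to 11.2 in the double knockout, 11.3 to 11.5 in Atg7 cKO and 11.5 in Nrf2 KO, against 11.4 to 11.6 in WT. Their median log2 ratio was -0.28 in the double knockout and -0.03 in Atg7 cKO. Lymphocyte markers (7 of 8 kept) gave 9.18 to 9.27, 9.09 to 9.13 and 9.08 to 9.12 in the same order, against 8.98 to 9.11 in WT. Of these lists, 1 neutrophil marker with a probe was well above background in no channel, and 0 of the others. In whole liver, fewer cells of a type and less RNA per cell cannot be told apart.

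Most of the 35 genes were higher in the autophagy-deficient livers. In Atg7 cKO over WT, 21 of 35 rose and 1 fell in limma's moderated test with Benjamini-Hochberg adjustment over all genes at 0.05, where 23.2% of all 16673 genes tested rose and 16.2% fell (39.4% in all). The median log2 ratio of the 35 was 0.47 (0.34 in experiment 2 and 0.60 in experiment 5), against 0.00 over all genes, and 26 genes were positive in both experiments. Increases of at least 2-fold that passed the test were found for 7 of the 35, against 3.91% of all genes. In the double knockout over WT, 20 of 35 rose and 4 fell, where 21.2% of all genes rose and 15.9% fell (37.1% in all). The median was 0.40 (0.36 in experiment 3 and 0.44 in experiment 6), again against 0.00 over all genes. Of the 35, 7 had increases of at least 2-fold that passed the test, against 4.07% of all genes. Centring each array on its median in place of loess moved the median of all genes to 0.14 in the double knockout and changed the split there to 23 higher and 1 lower. Leaving out experiment 3 left 14 higher and 1 lower. Of the genes called, 15 of 24 in the double knockout and 16 of 22 in Atg7 cKO were called under every alternative in which they had a value. Ctss in Atg7 cKO had none without experiment 2.

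**Figure D1:**
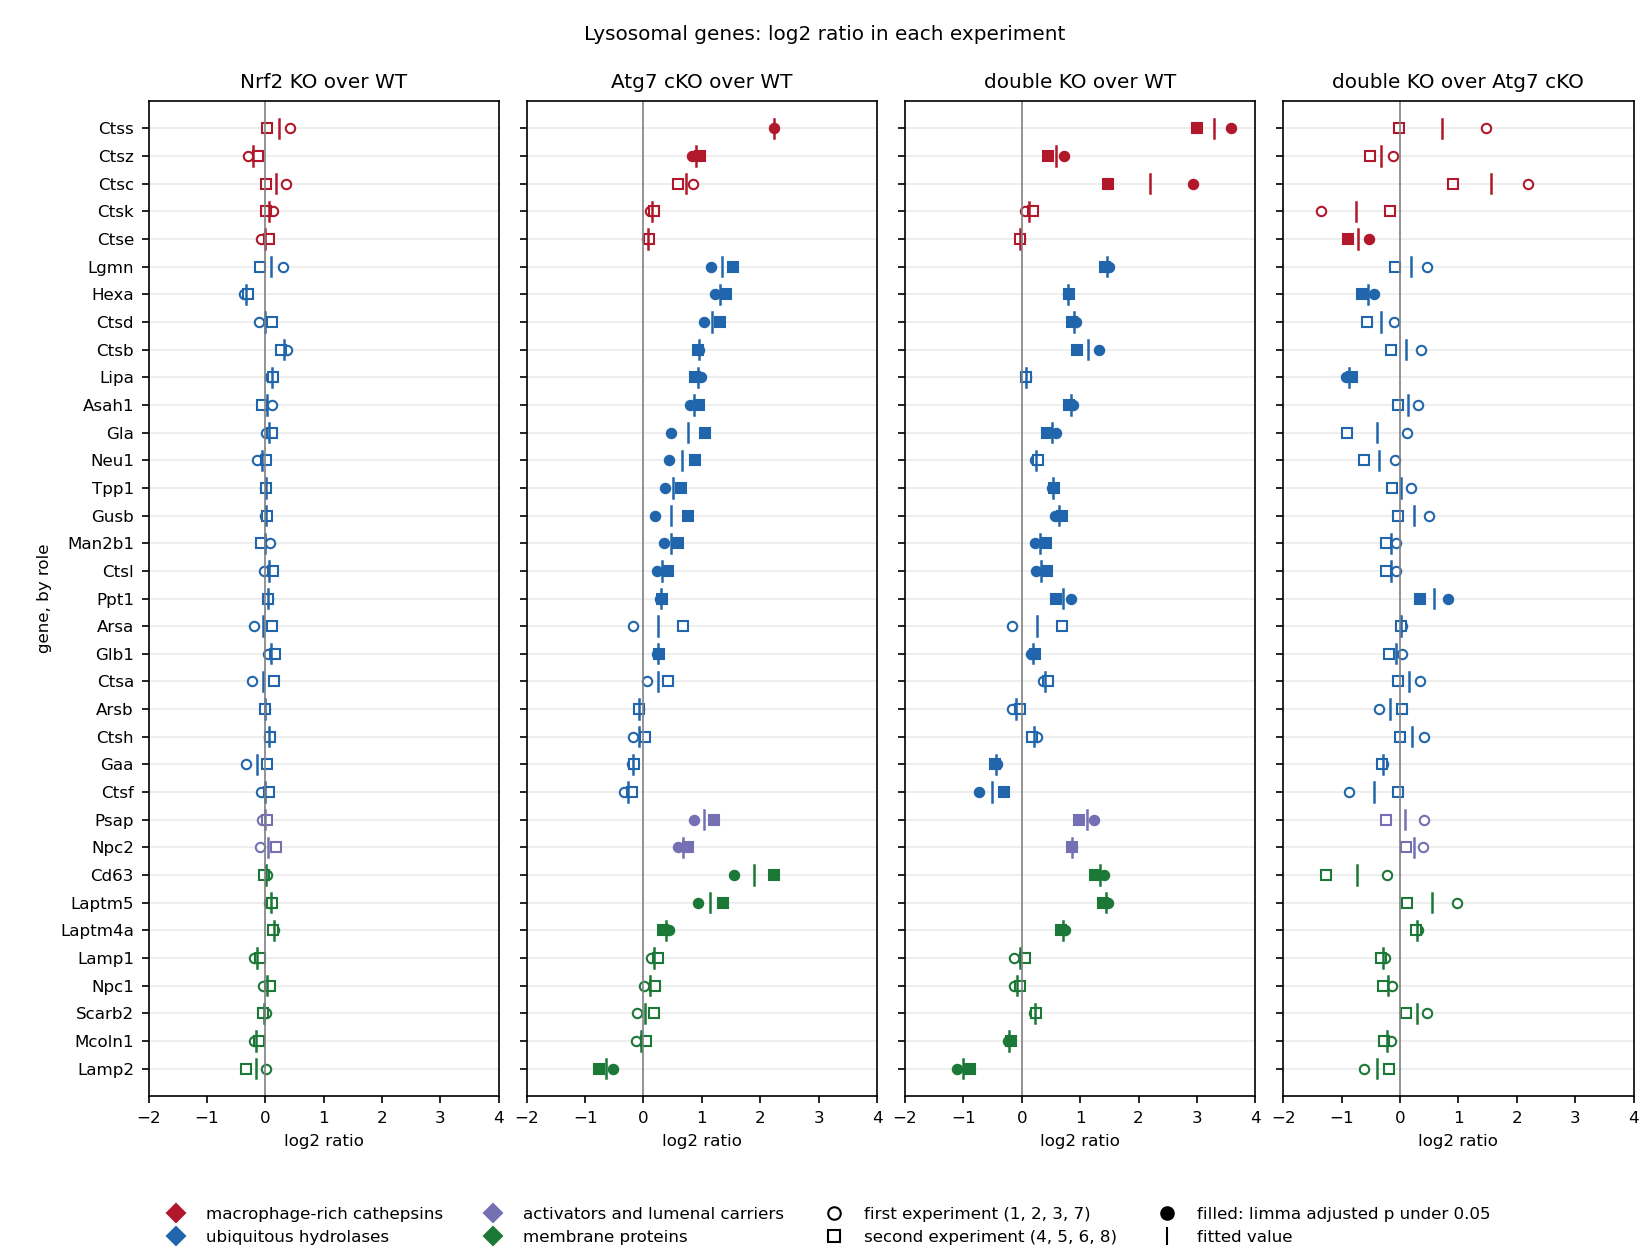
Log2 ratio (horizontal axis) of each of the 35 lysosomal genes (rows, coloured by role) in 4 panels, Nrf2 KO over WT, Atg7 cKO over WT, the double knockout over WT and the double knockout over Atg7 cKO. Circles and squares are the 2 experiments, filled where limma's adjusted p was under 0.05, and ticks are fitted values: Nrf2 KO stays between -0.33 and 0.32, and Ctss, at 3.30 in the double knockout, is the highest fitted value.

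Among the macrophage-rich cathepsins, cathepsin S had the largest increase of the 35 genes in both comparisons. Ctss, a cysteine protease that antigen-presenting cells use to trim the invariant chain, gave log2 ratios of 3.59 and 3.01 in the double knockout over WT, where its fitted value was 3.30 ± 0.41 (SD, n = 2; 9.85-fold; limma adjusted p = 0.0011). In Atg7 cKO over WT its only value was 2.23, from experiment 2 (4.70-fold). In experiment 5 the single Ctss spot of 1 array carried an outlier flag, and the fit dropped that experiment. The spread used to test Ctss in Atg7 cKO thus came from the other comparisons. With the spot kept, experiment 5 gave 2.94 (2.50 on the array with the flag and 3.37 on its dye swap) and the fit 2.58 (adjusted p = 0.00151). The probe lies at mm9 chr3:95360162-95360221. The signals in both knockouts, each the mean of a dye swap, lay above the WT mean of every experiment. On the log2 scale they were 13.6 and 13.3 in the double knockout, against 9.99 to 10.6 in WT. In Atg7 cKO, the flagged spot included, they were 12.3 and 13.3.

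Ctsc, the dipeptidyl peptidase that activates granule serine proteases, gave 2.93 and 1.48 in the double knockout over WT. Its fitted value was 2.205 ± 1.03 (SD, n = 2; 4.61-fold; limma adjusted p = 0.00661), and the value of experiment 3 was well above that of experiment 6. In Atg7 cKO over WT it gave 0.84 and 0.60 and did not pass the test (fitted 0.72, adjusted p = 0.146). Ctsz, a carboxypeptidase, gave 0.72 and 0.45 in the double knockout and 0.83 and 0.97 in Atg7 cKO and rose in both (fitted 0.58 and 0.90, adjusted p = 0.00656 and 0.00201). Without experiment 3 the adjusted p of Ctsz in the double knockout was 0.056.

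The other macrophage-rich cathepsins were dim. Ctsk, the collagen-degrading cathepsin best known from osteoclasts, was well above background in 1 of 4 double knockout channels and 3 of 4 Atg7 cKO channels, against 0 of 4 WT channels in either comparison. It was kept only through these knockout channels and did not pass the test in either genotype (adjusted p = 0.18 and 0.102). Its bounds were at least 1.03-fold in the double knockout, where 3 of 4 channels were not above background either, and at least 1.07-fold in Atg7 cKO. They compare the knockout's mean with the higher of its WT signal and the lowest signal called well above background on each array. Ctse, an aspartic protease, gave -0.03 and -0.02 in the double knockout and 0.05 and 0.10 in Atg7 cKO, with no call in either. Its WT signal was 5.94 to 6.13 on the log2 scale, and the offset used in the background correction shrinks ratios of such dim probes.

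Of the 20 ubiquitous hydrolases, 12 rose and 2 fell in the double knockout, where 21.2% of all genes rose and 15.9% fell, and 14 rose and 0 fell in Atg7 cKO, where 23.2% rose and 16.2% fell. Lgmn, the asparaginyl endopeptidase that processes several cathepsins, gave 1.49 and 1.42 in the double knockout and 1.16 and 1.53 in Atg7 cKO (fitted 1.46 and 1.34, adjusted p = 0.00144 and 0.0018). Hexa, a subunit of beta-hexosaminidase, gave 0.79 and 0.80 in the double knockout and 1.23 and 1.41 in Atg7 cKO (fitted 0.80 and 1.32, adjusted p = 0.00105 and 0.00043). Asah1, the acid ceramidase, gave 0.88 and 0.81 in the double knockout and 0.79 and 0.95 in Atg7 cKO (fitted 0.85 and 0.87, adjusted p = 0.00118 and 0.00123). In each of these 3 genes both experiments lay well above 0 in both genotypes.

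Among the proteases most often used to mark lysosomes, Ctsd, the main aspartic protease, gave 0.92 and 0.86 in the double knockout and 1.03 and 1.30 in Atg7 cKO (fitted 0.89 and 1.17, adjusted p = 0.00214 and 0.00121). Ctsb, a cysteine protease, gave 1.32 and 0.95 in the double knockout and 0.95 and 0.94 in Atg7 cKO (fitted 1.13 and 0.94, adjusted p = 0.00138 and 0.00221). A much dimmer Ctsb probe gave -0.08 and 0.20, so the call rests on the brighter probe. Ctsl, a cysteine protease with broad specificity, moved less, with 0.24 and 0.43 in the double knockout and 0.22 and 0.41 in Atg7 cKO (fitted 0.34 and 0.32, adjusted p = 0.0251 and 0.029). Ctsl was not called without experiment 3 or 6 in the double knockout (adjusted p = 0.0627 and 0.195), without experiment 1, 4 or 5 in Atg7 cKO (0.0543 to 0.205), or, in either, with the dyes fitted as an effect (0.0535 and 0.0649).

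Lipa, the acid lipase that frees cholesterol and fatty acids from lipids taken up into lysosomes, rose in Atg7 cKO and not in the double knockout. It gave 0.99 and 0.88 in Atg7 cKO (fitted 0.93 ± 0.08, SD, n = 2; 1.91-fold; limma adjusted p = 0.000675), but 0.08 and 0.08 in the double knockout (fitted 0.08, adjusted p = 0.279). The Lipa signal was 11.02 and 11.2 on the log2 scale in Atg7 cKO and 10.2 and 10.3 in the double knockout, against 10.03 to 10.3 in WT. Both Atg7 cKO values lay well above every WT value, and those of the double knockout lay next to them. The probe lies at mm9 chr19:34567717-34567776, and a second, dim Lipa probe gave 0.02 in the double knockout and 0.13 in Atg7 cKO.

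The remaining ubiquitous hydrolases that rose in both genotypes were Ppt1, Gusb, Tpp1, Gla, Man2b1 and Glb1. Their fitted log2 ratios were 0.19 to 0.71 in the double knockout and 0.25 to 0.77 in Atg7 cKO. Some alternatives lost the call of Ppt1 in Atg7 cKO, of Gla in the double knockout, and of Gusb, Man2b1 and Glb1 in both. For Glb1 in the double knockout these were 11 of 17. A second, dimmer Tpp1 probe gave -0.06 in the double knockout and -0.04 in Atg7 cKO. That of Glb1 gave -0.02 and 0.11. Neu1, a sialidase, rose in Atg7 cKO (0.66) and gave 0.25 in the double knockout with no call (adjusted p = 0.145). Gaa, the acid alpha-glucosidase that degrades glycogen, and Ctsf, a cysteine protease, fell in the double knockout (fitted -0.44 and -0.51, adjusted p = 0.0176 and 0.0196) and gave -0.17 and -0.27 in Atg7 cKO, with no call. Both calls were lost with median centring (-0.13 and -0.22, adjusted p = 0.139 and 0.2) and without experiment 3 (-0.46 and -0.30, 0.103 and 0.104), and that of Gaa without experiment 6 (0.121). Ctsa, Ctsh, Arsa and Arsb were not called in either genotype. Some alternatives called Ctsa higher. In the double knockout they included offset 16, median centring, the dye effect and slide or set as a block (adjusted p 0.00476 to 0.0456). In Atg7 cKO they were median centring and slide or set as a block (0.00422 to 0.0423). Ctsh was called higher in the double knockout with offset 16 (0.03975) and the mean of probes (0.0482). Median centring called Neu1 higher in the double knockout (0.0227) and Gaa higher in Atg7 cKO (0.0132). Ctsf was called lower in Atg7 cKO with the set as a block (0.0351) and the dye effect (0.0284).

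The lumenal helpers rose with the hydrolases. Psap, the precursor of the saposins that present lipids to hydrolases, gave 1.23 and 0.98 in the double knockout and 0.87 and 1.21 in Atg7 cKO (fitted 1.11 and 1.04, adjusted p = 0.00169 and 0.00203). Npc2, which carries cholesterol in the lumen, gave 0.87 and 0.86 in the double knockout and 0.60 and 0.76 in Atg7 cKO (fitted 0.86 and 0.68, adjusted p = 0.00184 and 0.00331).

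With loess, the membrane proteins did not move together. Of 8, 3 rose and 2 fell in the double knockout and 3 rose and 1 fell in Atg7 cKO. Of all genes, 21.2% and 23.2% rose and 15.9% and 16.2% fell. With median centring in Atg7 cKO, Lamp1, Scarb2, Npc1 and Mcoln1 were called higher too (adjusted p = 0.00675 to 0.0261), and Lamp2 lost its call. There the median of all genes moved to 0.21. In the double knockout Lamp2 stayed lower with median centring. Cd63, a tetraspanin of late endosomes and lysosomes, gave 1.41 and 1.25 in the double knockout and 1.55 and 2.24 in Atg7 cKO (fitted 1.33 and 1.90, that is 2.52-fold and 3.72-fold, adjusted p = 0.00352 and 0.00147). Laptm5, a membrane protein made mainly by blood-derived cells, gave 1.47 and 1.40 in the double knockout and 0.93 and 1.36 in Atg7 cKO (fitted 1.44 and 1.14, adjusted p = 0.000999 and 0.00168). Laptm4a, its widely expressed relative, rose by less (fitted 0.71 and 0.39). Laptm5, Ctss, Ctsc and Ctsz were measured beside macrophage markers of which 15 of 15 rose in the double knockout and 13 of 15 in Atg7 cKO (medians 1.71 and 1.48), and the part of these in the results was not tested.

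The LAMP pair and the cholesterol transporter went otherwise. Lamp1 gave -0.13 and 0.06 in the double knockout and 0.12 and 0.25 in Atg7 cKO, with no call in either (adjusted p = 0.755 and 0.084). In Atg7 cKO, Lamp1 was called higher with the set as a block (0.0291) and with median centring (0.58, adjusted p = 0.00883). Lamp2 gave -1.12 and -0.89 in the double knockout and -0.53 and -0.76 in Atg7 cKO, and fell in both (fitted -1.003 and -0.64, adjusted p = 0.00259 and 0.00884). Its probe (mm9 chrX:35758309-35758368) stands on another transcript than a second bright probe (chrX:35772774-35772833), which gave -0.20 and -0.18 in the double knockout and -0.70 and -0.39 in Atg7 cKO. Both were below 0 in all 4 experiments, but in the double knockout the first was the lower by far. In Atg7 cKO the call of Lamp2 was lost with median centring (-0.24, adjusted p = 0.366) and without experiment 5 (adjusted p = 0.0806). Npc1, the membrane transporter that takes cholesterol over from Npc2, gave -0.13 and -0.02 in the double knockout and 0.01 and 0.20 in Atg7 cKO and was not called. Median centring called Npc1 higher in Atg7 cKO (0.50, adjusted p = 0.00675).

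Mcoln1, the cation channel that releases lysosomal calcium, fell slightly in the double knockout (fitted -0.21, adjusted p = 0.047), but median centring turned that value to 0.08 (adjusted p = 0.523) and 8 other alternatives lost the call. It gave -0.04 in Atg7 cKO with no call, where median centring called it higher (0.41, adjusted p = 0.0169). Scarb2, the receptor that sorts beta-glucocerebrosidase, was not called in either genotype. Median centring called it higher in the double knockout (0.53, adjusted p = 0.0263) and in Atg7 cKO (0.49, adjusted p = 0.0261). Of the 8 genes with GTCACGTG in the promoter window, 4 rose and 1 fell in the double knockout and 4 rose and 0 fell in Atg7 cKO, beside 21.2% and 23.2% of all genes that rose. Of the 22 genes with a window and without the motif, 14 rose and 3 fell in the double knockout and 15 rose and 1 fell in Atg7 cKO. With loess, Ctsd rose and Lamp1 and Mcoln1 did not, although all 3 hold the motif, while Ctss rose most without it. Of the 11 genes with CACGTG, 5 rose and 3 fell in the double knockout and 5 and 0 in Atg7 cKO. The 19 without it gave 13 and 1 in the double knockout and 14 and 1 in Atg7 cKO. Of the 6 with the antioxidant response core, 5 rose and 0 fell in each genotype. The 24 without that core gave 13 and 4 in the double knockout and 14 and 1 in Atg7 cKO. Whether a motif goes with the calls was not tested.

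**Figure D2:**
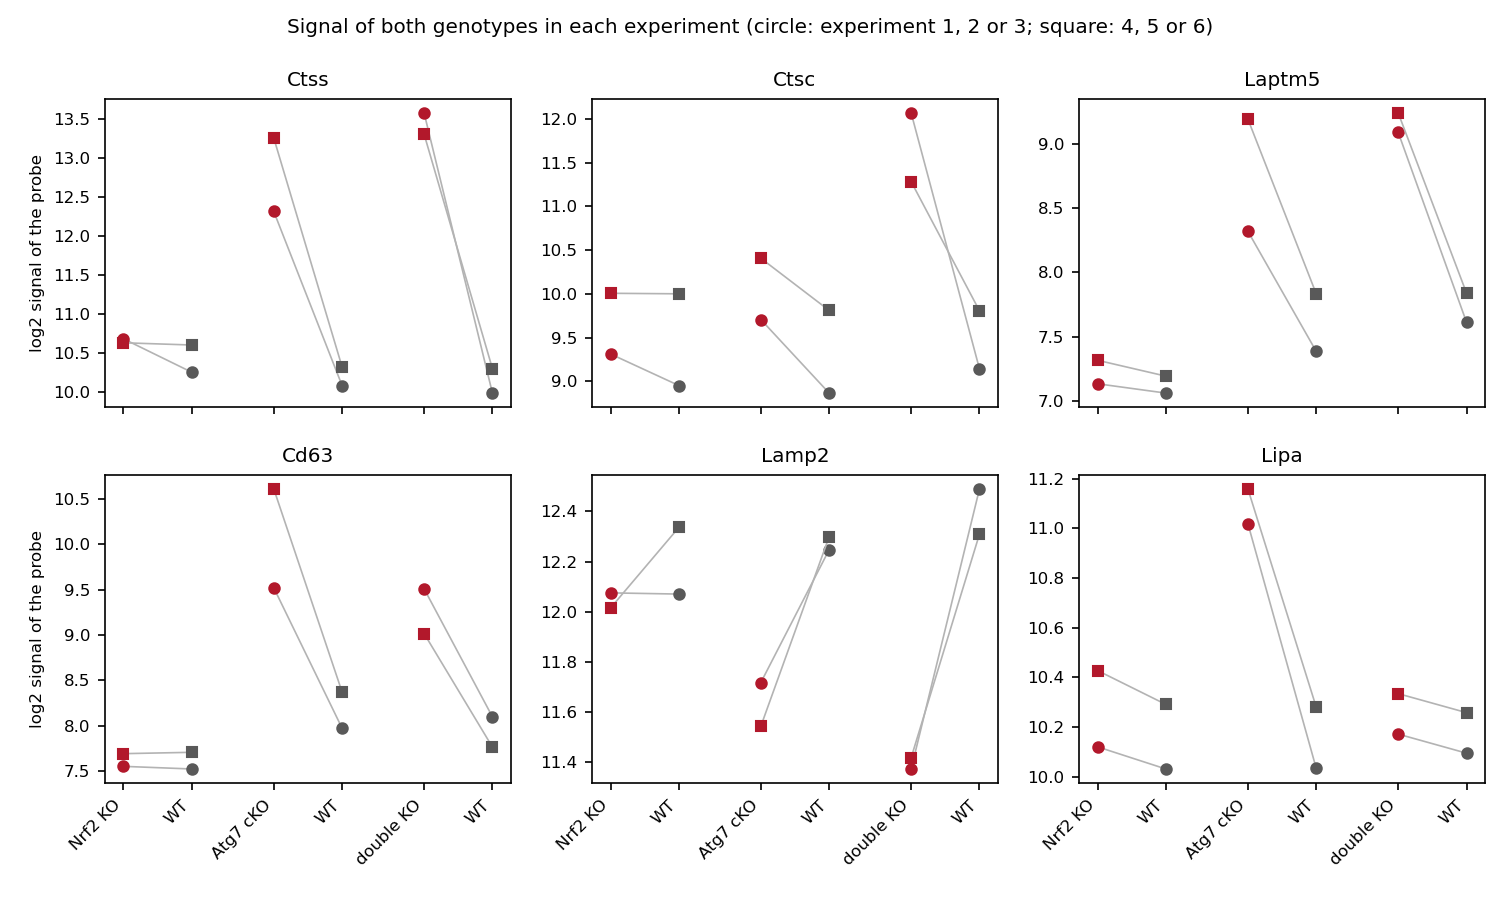
Log2 signal (vertical axis, after loess and Aquantile) of the probes for Ctss, Ctsc, Laptm5, Cd63, Lamp2 and Lipa, with the knockout (red) left of its WT partner (grey) on the same arrays, each point the mean of a dye swap. Ctss, Ctsc, Laptm5 and Cd63 lie higher and Lamp2 lower than the WT partner in all 4 Atg7 cKO and double knockout experiments, and Lipa is clearly higher only in Atg7 cKO, at 11.02 and 11.2; the flagged Ctss spot of experiment 5 is included.

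In Nrf2 KO none of the 35 genes passed the test, as for nearly all genes: 0.0120% of 16673 did, and all of them were lower. At an unadjusted p under 0.05 there were 3 of 35, and 616 of all 16673 genes. The median log2 ratio was 0.01 (0.00 in experiment 1 and 0.03 in experiment 4), and fitted values ran from -0.33 to 0.32. Hexa was the lowest, at -0.36 and -0.30 (adjusted p = 0.681), and was called with the dyes fitted as an effect and the experiment as a random block (adjusted p = 0.0452). Ctsb was the highest, at 0.38 and 0.27. Ctss gave 0.43 and 0.03, Ctsc 0.36 and 0.01, Ctsz -0.30 and -0.12, Ctse -0.08 and 0.07, and Laptm5 0.07 and 0.12. Ctsk was not well above background in either Nrf2 KO or WT channels. Lamp1 gave -0.19 and -0.09, Lamp2 0.00 and -0.32, Ctsd -0.11 and 0.11, Ctsl -0.01 and 0.13, and Npc1 -0.03 and 0.08. The dye orientations correlated weakly here, with the values given above.

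The double knockout set directly against Atg7 cKO compares livers with Atg7 deletion in mice without and with Nrf2. Of the 35 genes 1 rose and 3 fell, where 6.73% of all 16674 genes rose and 8.08% fell (14.8% in all). None rose by at least 2-fold and passed the test, as 2.49% of all genes did. This comparison used the deposited ratios of experiments 1 to 8, because experiments 7 and 8 were read only from the value table. Lipa gave -0.93 and -0.83 and fell (fitted -0.88 ± 0.07, SD, n = 2; limma adjusted p = 0.00536), so the double knockout had less Lipa by 1.84-fold. Hexa gave -0.44 and -0.65 and fell (fitted -0.54, adjusted p = 0.0244). Ppt1, which removes palmitate from proteins, gave 0.83 and 0.34 and rose (fitted 0.58, adjusted p = 0.0483), and a second Ppt1 probe gave 1.01 and 0.20. The call of Ppt1 was lost with no filter on dim probes (adjusted p = 0.0849), the mean of its probes (0.0656), experiments 7 and 8 alone (0.22) and without experiment 7 or 8 (0.356 and 0.0505). Ctse gave -0.54 and -0.89 and fell (fitted -0.71, adjusted p = 0.0476), but this probe was dim: in experiments 1 to 6 it was well above background in 3 of 4 double knockout and 4 of 4 Atg7 cKO channels, and the offset was not applied to the deposited ratios. Its call was lost with no filter on dim probes, the dye effect, experiments 7 and 8 alone and without either (adjusted p from 0.0986 to 0.353).

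Several genes differed widely between the direct experiments. Ctsc gave 2.201 and 0.91 (fitted 1.56, adjusted p = 0.0611) and Ctss 1.47 and -0.02 (fitted 0.73, adjusted p = 0.253), so the increase in experiment 7 was absent for Ctss in experiment 8. Ctsz gave -0.12 and -0.52, Ctsk -1.35 and -0.17, and Laptm5 0.98 and 0.11, none of them called. Experiment 7 was the higher for Ctsc, Ctss, Ctsz and Laptm5. Cd63 gave -0.22 and -1.27 (adjusted p = 0.114) and Lamp2 -0.61 and -0.19 (adjusted p = 0.132), whereas the second bright Lamp2 probe gave 0.50 and 0.19. Lamp1 gave -0.26 and -0.32, Ctsb 0.36 and -0.16, Ctsd -0.10 and -0.56, Ctsl -0.07 and -0.25, and Npc1 -0.13 and -0.28, with no call. The dye effect with the experiment as a random block added calls (adjusted p = 0.00229 to 0.0379). These were Ctsc, Laptm4a and Laptm5 as higher, and Gaa, Lamp1, Lamp2 and Cd63 as lower. With no filter on dim probes, Lamp1 was called lower (0.0291) and Laptm4a higher (0.0314).

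Without experiment 7 none of the 35 was called, and without experiment 8 the calls were 1 higher, Laptm5 (adjusted p = 0.0481), and 1 lower, Lipa. Experiments 7 and 8 fitted alone also gave 0 calls by limma. Estimated from the experiments against WT instead, the double knockout was lower than Atg7 cKO in Lipa (-0.86, adjusted p = 0.00974) and Hexa (-0.52, adjusted p = 0.0375) and in none of the others, where 1.74% of all genes were higher and 3.21% lower (4.95% in all). With the set of experiments as a block, Ctss was called higher too (1.31, adjusted p = 0.019, against 1.07 and 0.156 without the block), where its missing value in experiment 5 leaves the sets uneven. Hexa lost its call through WT with the value table, offset 16, median centring, slide as a block and without any 1 experiment (adjusted p from 0.0511 to 0.161), and Lipa with the value table, slide as a block and without experiment 1, 3 or 4 (0.0541 to 0.0623). The departure of the double knockout from the sum of both single knockouts, an interaction, was called for Lipa alone among the 35, as lower, where 0.588% of all genes were called lower and 0.132% higher. For Hexa the direct call was lost without experiment 7 or 8 or with these experiments alone (adjusted p up to 0.19), and for Lipa without experiment 7 (0.0686) and with these experiments alone (0.111).

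The macrophage-rich cathepsins and the ubiquitous hydrolases were then set side by side. Their medians were 0.58 and 0.37 in the double knockout over WT, 0.72 and 0.47 in Atg7 cKO over WT, 0.07 and 0.01 in Nrf2 KO over WT, and -0.32 and -0.11 in the double knockout over Atg7 cKO. The macrophage-rich median in Nrf2 KO is the value of Ctsk, which was above background in 0 of 4 channels of either genotype, so it carries no comparison. The gap between the class medians was 0.41 and 0.01 in experiments 3 and 6, 0.52 and -0.27 in experiments 2 and 5 (the last without Ctss), 0.13 and -0.04 in experiments 1 and 4, and -0.16 and -0.02 in experiments 7 and 8. The sign of the gap differed between experiments. The macrophage-rich median was the value of the dim Ctsk in experiments 1, 4 and 8, and lay between Ctsk and Ctsc in experiment 5. An order of the classes across experiments thus cannot be read from these gaps. Of the 5 macrophage-rich genes, 3 lay above the ubiquitous median in each comparison with WT, Ctsk among them in Nrf2 KO, and 2 in the direct one. The class was wide: in the double knockout it ran from -0.02 (Ctse) to 3.30 (Ctss), against -0.51 (Ctsf) to 1.46 (Lgmn) for the ubiquitous hydrolases.

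The median depended on which genes were counted as macrophage-rich. With Ctsc, Ctss and Ctsz alone it was 2.205 in the double knockout and 0.90 in Atg7 cKO over WT and 0.73 in the direct comparison. The ubiquitous hydrolases without cathepsins and legumain moved by less than the spread between experiments in each comparison.

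**Figure D3:**
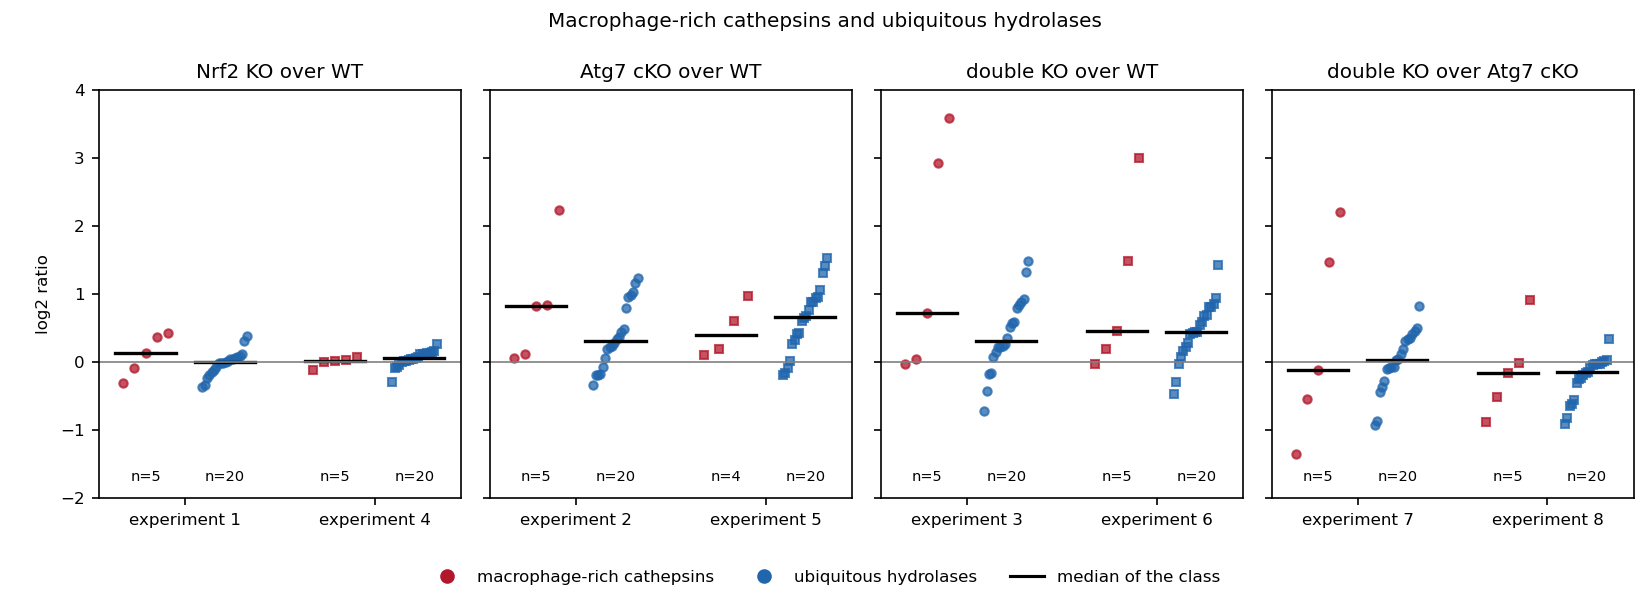
Log2 ratio (vertical axis) of the macrophage-rich cathepsins (red, left) and the ubiquitous hydrolases (blue, right) in each experiment of the 4 comparisons; each point is a gene and bars are class medians. Ctss and Ctsc stand above every ubiquitous hydrolase in experiments 3 and 6, whereas the rest of their class overlaps the hydrolases, and Ctss has no point in experiment 5.

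Other genes of the pathway, taken from fixed lists, were described in the same way. Of 25 other lysosomal hydrolases, 7 rose and 3 fell in the double knockout (median log2 ratio 0.15) and 11 rose and 1 fell in Atg7 cKO (0.16). The shares over all genes, against which this and the following counts stand, were 21.2% higher and 15.9% lower in the double knockout and 23.2% higher and 16.2% lower in Atg7 cKO, so the double knockout counts of these hydrolases lie near them. Naaa, an acid amidase for ethanolamides, rose in the double knockout (1.92 and 1.64, fitted 1.78) and, by less, in Atg7 cKO (0.61), and Hyal1, a hyaluronidase, fell in the double knockout (-0.87 and -0.74) and in Atg7 cKO (-0.73 and -1.16). Dnase2a, the acid DNase, fell in the double knockout (-0.83 and -0.87). Galns, a sulfatase, and Plbd2 rose in Atg7 cKO (fitted 0.65 for each) and gave 0.13 and 0.18 in the double knockout, where only Plbd2 was called.

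Most subunits of the proton pump rose in both genotypes. Of 18 V-ATPase subunits, 11 rose and 1 fell in the double knockout (median 0.26) and 13 rose and 0 fell in Atg7 cKO (median 0.38), where 21.2% and 23.2% of all genes rose. Atp6v0e gave 1.28 and 0.89 in the double knockout and 1.06 and 0.9988 in Atg7 cKO, and Atp6v1g1 1.27 and 0.87 in the double knockout and 0.66 and 0.72 in Atg7 cKO. Tcirg1 rose by 0.60 in the double knockout and 0.49 in Atg7 cKO, and Atp6v1a by 0.37 in the double knockout and 0.77 in Atg7 cKO. Of 20 other lysosomal membrane proteins, 6 rose and 0 fell in the double knockout (median 0.09) and 9 rose and 1 fell in Atg7 cKO (median 0.16), where 21.2% and 23.2% of all genes rose. Slc11a1, a metal transporter of phagocytes, led them with 1.59 and 1.39 in the double knockout and 1.61 and 1.83 in Atg7 cKO, followed by Cd68, a macrophage membrane glycoprotein, with 1.22 and 1.26 in the double knockout and 1.03 and 1.52 in Atg7 cKO. Ostm1, a partner of the chloride transporter of lysosomes, rose in the double knockout (0.45) and Laptm4b in Atg7 cKO (0.62).

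Of 19 genes for delivery to lysosomes, 4 rose and 2 fell in the double knockout and 6 rose and 1 fell in Atg7 cKO, not far from the shares over all genes. Both mannose 6-phosphate receptors rose: M6pr gave 0.82 and 0.74 in the double knockout and 0.61 and 0.72 in Atg7 cKO, and Igf2r 0.49 and 0.50 in the double knockout and 0.76 and 1.01 in Atg7 cKO. Gnptg, a subunit of the enzyme that adds the mannose 6-phosphate tag, fell in both (-0.50 and -0.52). Of 13 lysosome regulators, 3 rose and 2 fell in the double knockout and 4 rose and 0 fell in Atg7 cKO, near the shares over all genes. Tfec, a relative of TFEB, rose in both (0.61 and 0.55), as did Rragc, a GTPase that signals amino acid supply at the lysosome (0.40 and 0.42). Mitf, another relative of TFEB, rose in the double knockout (0.37). Rragd, also such a GTPase, rose in Atg7 cKO (1.59 and 2.32, fitted 1.96).

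Of the 8 listed inhibitors, 4 were tested, and 4 rose in the double knockout and 2 in Atg7 cKO. Cstb, the cytosolic inhibitor of cathepsins, gave 1.36 and 1.21 in the double knockout and 2.77 and 3.12 in Atg7 cKO (fitted 1.28 and 2.95). Cst3, a secreted inhibitor, rose in the double knockout (0.64). Serpinb6a, a serpin and not a cystatin, gave 0.72 and 1.58 in the double knockout and 2.19 and 2.71 in Atg7 cKO and rose in both (fitted 1.15 and 2.45). None of the genes of these lists was called in Nrf2 KO, and the unadjusted p was under 0.05 for 4 of the 25 hydrolases, 2 of the 19 delivery genes and 0 of the others.

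Set directly against Atg7 cKO, the double knockout differed in 4 of the 25 hydrolases, 1 of the 20 membrane proteins, 2 of the 18 V-ATPase subunits, 1 of the 19 delivery genes, 2 of the 13 regulators and 3 of the 4 inhibitors, where 14.8% of all genes were called. Rragd gave -2.91 and -3.17 (fitted -3.04, adjusted p = 0.000762), Cstb -1.59 and -2.13 (-1.86, adjusted p = 0.00269) and Serpinb6a -1.56 and -1.28 (-1.42, adjusted p = 0.0178). These 3 genes were all lower in the double knockout. Dnase2a gave -1.76 and -1.29 (-1.52, adjusted p = 0.00536), Galns -0.89 and -1.05 (adjusted p = 0.0403), Laptm4b -0.81 and -0.93 (adjusted p = 0.0102), Mtor -0.72 and -0.73 (adjusted p = 0.0212), Gga2 -0.65 and -0.80 (adjusted p = 0.0389), Atp6v0a1 -0.57 and -0.59 (adjusted p = 0.0205) and Atp6v1a -0.40 and -0.52 (adjusted p = 0.0493). Naaa, with 1.99 and 1.25 (1.62, adjusted p = 0.00903), and Cst3, with 0.66 and 0.36 (0.51, adjusted p = 0.0348), were higher.

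**Figure D4:**
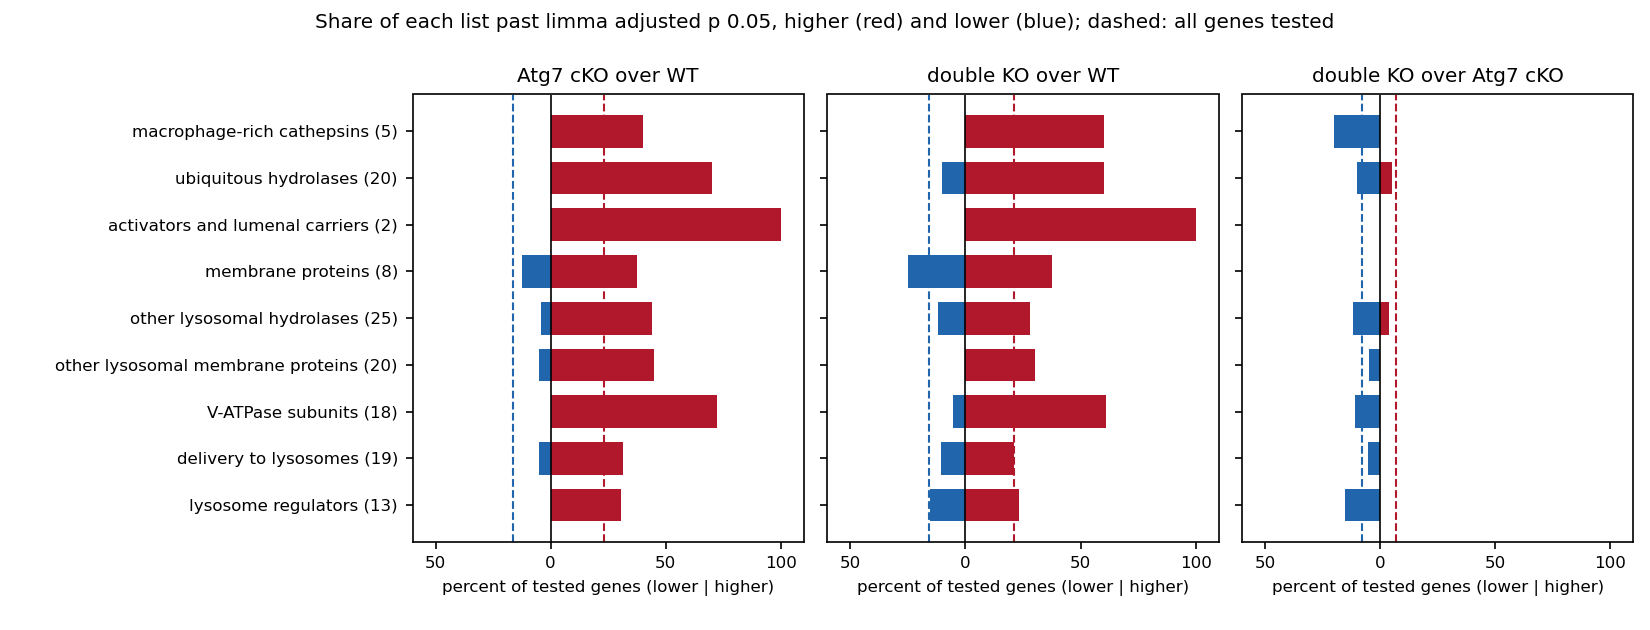
Percent of the tested genes of each list (rows, with the number tested) that passed limma's adjusted p of 0.05, higher to the right in red and lower to the left in blue, in Atg7 cKO over WT, the double knockout over WT and the double knockout over Atg7 cKO; dashed lines are the shares over all genes. The V-ATPase subunits (13 of 18 higher) and the ubiquitous hydrolases (14 of 20 higher) lie well past the dashed line in Atg7 cKO.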

How the data were processed

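Whole-liver RNA was hybridised on 16 Agilent 2-colour arrays in 8 dye-swapped experiments, grouped by the genotypes in the labels. For experiments 1 to 6 the deposited scanner files hold the mean and the median background intensity of each spot per the file headers (Agilent Feature Extraction 9.5.1 per the submitters' processing notes, probe coordinates on mm9). The deposited value table holds log10 ratios of Cy5 over Cy3 for all 16 arrays, which differed from the scanner files' own ratios by less than 0.005, and each column has a median of 0. It was turned to log2 and used for experiments 7 and 8.

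Signals were corrected with normexp (offset 50) and loess in limma 3.58.1 under R 4.3.3. Control and outlier-flagged spots were left out, and an experiment with only 1 array left for a probe was dropped for that probe. All ratios run as knockout over partner, and a dye swap was averaged to 1 value. Probes called well above background in fewer than 4 of 24 channels were removed, and the brightest kept probe stood for a gene. Of 41174 probes, 24844 were named by accession and 6045 by symbol through RefSeq (GRCm38.p6), and 10285 kept the file's name. One fit of 3 group means over experiments 1 to 6 and another of 4 group means over the value table's 8 experiments (residual degrees of freedom 3 and 4, prior 2.21 and 2.14) gave all tests, adjusted by Benjamini-Hochberg over all genes. The fits were tested on simulated data. The number of arrays limits the precision.

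The genes and lists were chosen with earlier results of these data known. Values were given per experiment for the macrophage-rich cathepsins, Laptm5, Lamp1, Lamp2, Ctsb, Ctsd, Ctsl, Npc1 and up to 6 other called genes with the largest change per comparison, and for up to 3 called genes per pathway list. Promoters came from RefSeq tables. Figures were drawn with matplotlib 3.10.9.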

Additional observations from a re-analysis of the deposited data

Results flagged for a closer look

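Lipa was the only one of the 35 genes for which the effect of the double knockout departed from the sum of the effects of Atg7 cKO and Nrf2 KO in limma's test (interaction on the log2 scale -0.97, adjusted p = 0.0286, where 0.720% of all genes were called). Its log2 ratios over WT were 0.08 in the double knockout, 0.93 in Atg7 cKO and 0.11 in Nrf2 KO. At an unadjusted p under 0.05 there were 2 of 35, and 2414 of all 16672 genes. The interaction of Lipa was not called with the deposited value table (-1.01, adjusted p = 0.175), median centring (-1.27, 0.0805), the mean of a gene's probes (-0.51, 0.0638) or slide as a block (-0.95, 0.108). Leaving out any 1 of experiments 1 to 6 gave values from -1.02 to -0.91, with adjusted p from 0.0568 to 0.252.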

How the results depend on the processing

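The count of called genes in Atg7 cKO stayed between 20 and 27 under the 11 alternatives other than leaving out an experiment, and that in the double knockout over WT between 21 and 25. Median centring, which moved the median of all genes to 0.21 in Atg7 cKO, gave 27 higher and 0 lower there. Keeping the outlier-flagged spots, an alternative chosen after seeing the data, changed no count. Leaving out experiments in turn gave 15 to 27 calls in the double knockout over WT, 16 to 23 in Atg7 cKO, 0 to 2 in the direct comparison, 0 to 2 in the double knockout against Atg7 cKO through WT and 0 for the interaction. The dye effect with the experiment as a random block gave 1 call in Nrf2 KO, 10 in the direct comparison and 6 through WT, while experiments 7 and 8 alone gave 0. Through WT there were 0 calls with the value table or slide as a block and 1 with offset 16 or median centring. The interaction gave 0 with the value table, median centring, the mean of probes or slide as a block. Fold changes of dim probes are understated. The cause of these changes was not tested.

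Medians of the macrophage-rich cathepsins changed most. In Nrf2 KO they were 0.20 with the value table, 0.17 with offset 16, -0.033 with slide as a block and 0.18 with Ctsc, Ctss and Ctsz alone. In Atg7 cKO they were 1.17 with median centring, 1.19 with Ctss and Ctsk alone, and 0.39 to 0.83 when an experiment was left out. In the double knockout over WT they were 1.02 with the value table, 0.78 with median centring, 1.39 with the stricter filter of 12 channels, 2.205 with Ctsc, Ctss and Ctsz alone and 1.71 with Ctss and Ctsk alone. In the direct comparison they were 0.20 with the stricter filter, -0.37 with the mean of probes, 0.73 with Ctsc, Ctss and Ctsz alone, -0.0166 with Ctss and Ctsk alone, and -0.17 to -0.12 without an experiment. Medians of the ubiquitous hydrolases were 0.13 with median centring, 0.0799 with slide as a block and -0.0024 to 0.0548 without an experiment in Nrf2 KO, 0.92 and 0.63 with median centring in Atg7 cKO and the double knockout over WT, and -0.15 to 0.0338 without an experiment in the direct comparison. Mcoln1 in the double knockout over WT was reversed by median centring (0.0821). No paired analysis was possible because the labels give the groups no shared replicate number. The sets of experiments, read from Xist and Y-linked genes, were fitted as a block instead, which gave 25 calls in the double knockout over WT (21 higher and 4 lower), 25 in Atg7 cKO (23 and 2) and 3 through WT (1 and 2). Ctsk, which enters the medians of Ctss and Ctsk alone, was above background in 0 WT channels.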

Other observations

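The WT channels differed between the sets of experiments. Arsa, a sulfatase, was the most different: its WT log2 signal averaged 8.72 in experiments 4 to 6 and 9.96 in experiments 1 to 3. Its ratios followed the sets in both knockouts, with 0.68 in experiment 6 and -0.17 in experiment 3 for the double knockout over WT, and 0.67 in experiment 5 and -0.18 in experiment 2 for Atg7 cKO over WT. The WT signal of Ctsc averaged 9.87 in experiments 4 to 6 and 8.98 in experiments 1 to 3. Arsa was named after its values were seen, and the labels do not say whether WT channels of a set share an RNA sample.

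Of the 35 genes, 16 had several kept probes. All kept probes of a gene had the same sign for 10 of these genes in the double knockout and for 13 in Atg7 cKO. The widest spread in the double knockout was that of Ctsb, from -0.08 to 1.13, and in Atg7 cKO that of Lipa, from 0.13 to 0.93.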
